A study of Mus musculus with 21 samples.

Results

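The STZ response of mouse skeletal muscle that lacks the transcription factors FoxO1, FoxO3 and FoxO4 was described from 12 of the 21 RNA-seq libraries of the series. These were the 6 libraries titled STZFoxOTKO and the 6 titled FoxOTKO, chosen by their titles. All 12 came from mice in which ACTA1-Cre, which is driven by the skeletal actin promoter, had deleted the floxed Foxo1, Foxo3 and Foxo4 alleles. Deletion was thus directed to skeletal muscle fibres, and blood vessel, connective tissue and immune cells in the sample kept the genes. The first group had been injected with STZ (streptozotocin, a toxin that kills the insulin-producing beta cells of the pancreas) at 150 mg/kg after an overnight fast. The protocol gave females a further 75 mg/kg on day 3, and the mice used had stayed above 300.0 mg/dL blood glucose for 9 to 12 days. The second group was the untreated knockout, for which the series describes citrate buffer alone as the control. The comparison groups were 5 STZ and 4 untreated libraries from floxed littermates without the deletion, on the same mixed C57 and 129 background. RNA was from powdered quadriceps and gastrocnemius combined. Whether every library is a separate mouse is not stated, so p-values measure the spread between these libraries, which may be technical.

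Insulin deficiency removes the signal that keeps FoxO factors out of the nucleus of muscle fibres. In the nucleus they switch on genes of protein breakdown such as the ubiquitin ligases Fbxo32 and Trim63. Without insulin, adipose tissue also releases fatty acids, and in muscle fatty acids act as ligands of the PPAR nuclear receptors, which switch on genes of lipid uptake and oxidation. A response of knockout fibres to STZ would therefore be one that does not need FoxO1, FoxO3 or FoxO4 in the fibre. Other cells in the sample kept these genes, and bulk RNA does not show which cells changed. Loss of FoxO3 could not be checked from the counts. In bulk tissue a lower level can mean fewer cells of a type or less RNA per cell, and the 2 cannot be told apart.

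The 12 knockout libraries held 2951290 to 6234979 counts over genes and had 16113 to 19386 genes with at least 1 count. Between 3.68% and 8.46% of the counts were from mitochondrial genes. Every one had Ddx3y counts, at least 150.0, and at most 1 count of Xist, the pattern of male tissue. Skeletal muscle genes dominated: the 12 fibre markers, Acta1 and Ckm among them, summed to 89135 to 197147 CPM (the gene's counts scaled to the library total, adjusted with TMM factors) in untreated and 116299 to 184524 in STZ knockouts. Pygm, also one of the 12, had almost no counts, at 0 to 0.156 CPM in untreated and 0 to 0.303 CPM in STZ knockouts. The reason was not tested.

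The levels of the deleted genes matched the labels for Foxo1 and Foxo4. Foxo1 was at 7.00, 15.9 and 17.7 CPM (lowest, median, highest) in untreated and at 10.9, 13.9 and 26.7 CPM in STZ knockouts, all below the lowest of the 9 floxed libraries, 36.4 CPM. Foxo4 was at 3.87 to 12.7 CPM in the 12 knockouts and at 124 to 201 CPM in floxed muscle. Foxo3 counts checked nothing, since they were 73.7 to 233 CPM in knockouts and 64.1 to 114 CPM in floxed muscle, and gene counts do not show which exons are present. None of the 3 passed the test for STZ in knockouts. The plot of FoxO and atrophy genes per library shows these levels.

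Across 12658 genes tested, STZ changed 18 genes in knockout muscle (0.142% of the genes tested; edgeR quasi-likelihood test, adjusted p under 0.05), of which 12 rose (0.0948%) and 6 fell (0.0474%). The genes that rose included those for fatty acid handling, namely Acot1, Acot2, Plin5, Cd36 and Ech1, and the peroxide-degrading enzyme Cat. The lower ones included Scd1, which desaturates fatty acids, and Oxct1, which starts ketone body use. At an unadjusted p under 0.05 there were 1430 genes (11.3%), 866 higher (6.84%) and 564 lower (4.46%), and 51.2% of all genes had a positive fold change. In floxed muscle 171 genes passed (1.35%), 63 higher (0.498%) and 108 lower (0.853%). The count of 18 moved with single libraries: it was 7 without library 2, 11 or 13, 8 without 6 or 12, 9 without 16, 11 without 10 or 18, 34 without 8, 61 without 4, and 51 without the floxed STZ library 17. Without libraries 11 and 18 together it was 4 (Acot1, Acot2, Chrna2 and Foxo6os).

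Libraries 11 and 18 stood apart among the STZ knockouts in stress and atrophy genes, libraries 4 and 15 had the highest macrophage marker sums of their group, and libraries 16 and 20 those of the untreated knockouts. The titles also carry library codes in 6 runs of near-consecutive numbers, 5 of which hold both knockout groups. With the run as a block, 98 genes passed, 45 higher and 53 lower, among them 15 of the 18; Scd1 (edgeR adjusted p = 0.0522) and Kcnf1 (0.0696) were among those lost. Leaving out libraries 4, 15, 16 and 20 gave 26 genes, 10 higher and 16 lower, among them 11 of the 18.

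**Figure D1:**
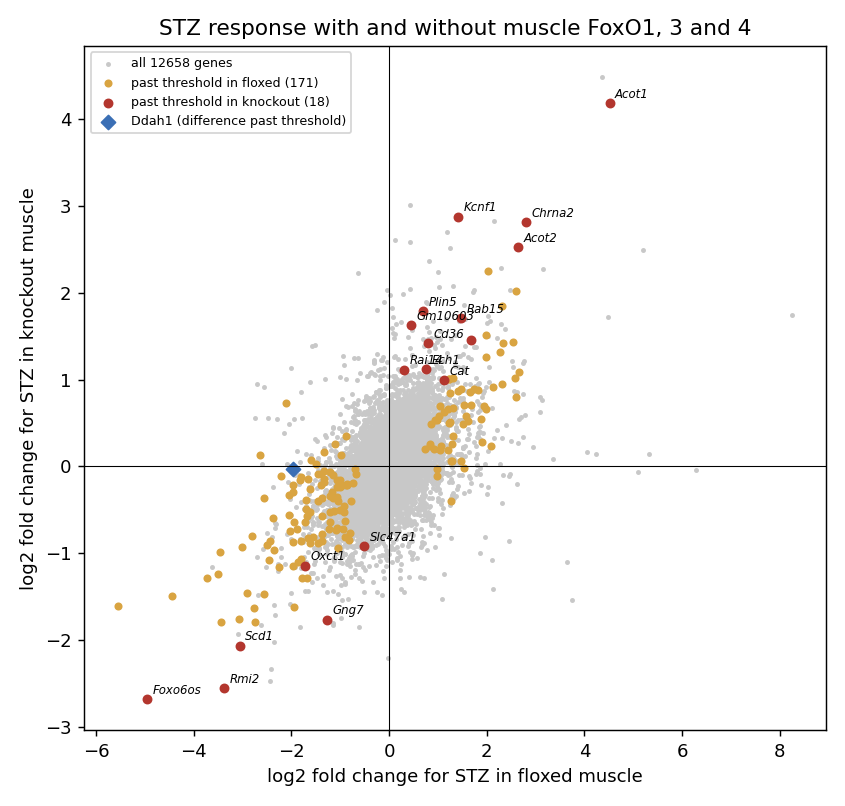
Log2 fold change for STZ in knockout muscle (vertical axis) against that in floxed muscle (horizontal axis) for all 12658 genes, with the 18 genes past the threshold in knockouts in red, 17 of them named, and the 171 past it in floxed muscle in yellow. All 18 lie in the quadrants of equal sign, and Ddah1 (blue) lies near 0 in knockouts and at -1.96 in floxed muscle.

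The promoters of 5 of the lipid and peroxide genes that rose in the knockout muscle are shown here. Each is the 250 bases before the RefSeq start (build GRCm38.p6), 5′ to 3′ on the gene's strand, in lower case, with capitals for the half-site of nuclear receptors, AGGTCA, read on either strand. Acot1 is at chr12:84009252-84009501 (+), Acot2 at chr12:83987611-83987860 (+), Plin5 at chr17:56117549-56117798 (-), Cd36 at chr5:17835897-17836146 (-) and Cat at chr2:103485154-103485403 (-).
Acot1: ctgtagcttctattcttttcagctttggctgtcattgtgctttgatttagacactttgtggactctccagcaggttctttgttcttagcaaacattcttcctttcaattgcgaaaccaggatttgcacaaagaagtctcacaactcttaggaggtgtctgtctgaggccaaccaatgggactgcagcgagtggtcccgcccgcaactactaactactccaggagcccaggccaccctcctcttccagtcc
Acot2: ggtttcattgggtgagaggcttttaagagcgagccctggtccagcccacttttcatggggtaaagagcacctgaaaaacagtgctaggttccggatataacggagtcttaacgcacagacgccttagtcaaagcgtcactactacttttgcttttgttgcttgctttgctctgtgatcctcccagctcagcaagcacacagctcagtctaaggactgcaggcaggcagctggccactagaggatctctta
Plin5: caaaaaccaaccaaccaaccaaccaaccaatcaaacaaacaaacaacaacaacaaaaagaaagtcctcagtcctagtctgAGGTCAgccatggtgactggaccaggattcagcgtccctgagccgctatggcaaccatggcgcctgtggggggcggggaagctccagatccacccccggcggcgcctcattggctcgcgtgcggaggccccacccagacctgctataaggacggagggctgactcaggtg
Cd36: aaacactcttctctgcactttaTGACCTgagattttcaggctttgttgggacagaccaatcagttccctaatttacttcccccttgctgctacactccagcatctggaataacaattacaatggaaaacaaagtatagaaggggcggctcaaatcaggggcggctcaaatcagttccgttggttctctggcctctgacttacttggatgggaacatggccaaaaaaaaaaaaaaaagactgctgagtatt
Cat: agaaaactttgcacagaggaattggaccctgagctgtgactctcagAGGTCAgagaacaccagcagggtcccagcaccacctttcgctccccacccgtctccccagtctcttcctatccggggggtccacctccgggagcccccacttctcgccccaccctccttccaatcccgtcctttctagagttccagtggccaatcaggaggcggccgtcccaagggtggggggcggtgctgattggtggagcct
Plin5, Cd36 and Cat each held 1 half-site in this window, and Acot1 and Acot2 held none. Ech1, which also rose, is not shown and held none. The table has a second start for Plin5, whose window (chr17:56117299-56117548, -) held none. The half-site search was chosen after the values were seen, and a gene with several starts was counted if any window held the motif. Of 13 called genes with a RefSeq promoter entry, 5 held the half-site (Kcnf1 and Rai14 were the others), as did 7 of 28 fatty acid oxidation genes (25.0%), 12.9% of 9698 tested genes and 15.8% of all 27025 genes of the table. It was in 13.6% of the 668 matched genes higher at an unadjusted p under 0.05 and in 15.2% of the 420 matched lower ones. The FoxO core GTAAACA, on either strand, was in none of the 13 promoters and in none of the 28, and in 2.60% of tested genes. In the same higher and lower genes its shares were 2.99% and 1.67%. Of the other motifs searched, 2 copies of AGGTCA 1 base apart were in 0.0309% of tested promoters, AGAACA and TGTTCT 3 bases apart (the glucocorticoid palindrome) in 0.0103%, 2 copies of TTTC 2 bases apart (interferon element) in 3.12%, and TGATG and AAT 1 base apart (amino acid response) in 0.474%. None of these was in a promoter of the 13. These are matches of letters and not sites of binding.

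Fatty acid genes gave the clearest response of knockout muscle. Acot1, a cytosolic enzyme that splits acyl-CoA into free fatty acid and coenzyme A, was at 0.542, 1.20 and 1.47 CPM in untreated knockouts and at 8.28, 16.4 and 34.9 CPM after STZ. Every STZ library lay above every untreated one, and the fold change was 4.18 ± 0.42 on the log2 scale (± SE throughout; n = 6 and 6; edgeR adjusted p = 1.28e-05). Acot2, its mitochondrial relative, was at 7.74, 12.8 and 18.6 CPM without STZ and at 38.0, 68.5 and 126 CPM with it. These groups did not overlap either, and Acot2 rose by 2.53 ± 0.31 (edgeR adjusted p = 0.000177). Libraries 11, 12 and 18 had the highest Acot1 and Acot2 of the STZ group and libraries 4, 8 and 15 the lowest of both. Both genes held their calls without any 1 of the 12 knockout libraries, with log2 fold changes of 3.91 to 4.34 and of 2.31 to 2.67.

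Acot1 (chr12:84009490-84018371) and Acot2 (chr12:83987861-83993873) are protein-coding neighbours on the plus strand in GENCODE M21 (GRCm38), with starts 21629 bases apart. Of the 50-base windows of the main Acot1 transcript 23.7% were also in that of Acot2, so the counts of the pair may be partly exchanged.

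Plin5, which coats lipid droplets and tethers them to mitochondria, was at 8.00, 12.1 and 24.1 CPM in untreated and at 27.9, 50.6 and 64.9 CPM in STZ knockouts. The groups did not overlap, and Plin5 rose by 1.79 ± 0.28 (edgeR adjusted p = 0.00413). Ech1, an isomerase for unsaturated fatty acids, was at 149.6, 191 and 253 CPM without STZ and at 310.4, 418 and 517 CPM with it, again with no overlap. Ech1 rose by 1.12 ± 0.20 (edgeR adjusted p = 0.0206). Its call was lost without library 2, 11, 12, 13 or 16, at adjusted p-values of 0.0518 to 0.0844, while the fold change stayed at 1.05 to 1.20. Plin5 passed without any 1 knockout library, and had an adjusted p of 0.0629 without libraries 11 and 18 together. Its call was also lost with the 12 knockout libraries alone and the run block.

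Of the 35 genes on the list for fatty acid oxidation, all tested, 33 had positive fold changes in knockouts, 4 rose (Acot1, Acot2, Plin5 and Ech1) and none fell. At an unadjusted p under 0.05, 21 of 35 (60.0%) were higher and none lower, against 6.84% higher of all genes. The list was chosen with earlier results of these data known, so this share is a description and not independent support. The list also holds genes that are not enzymes of oxidation, Plin5, Pdk4 and Angptl4 among them. The groups did not overlap, with STZ higher, for 7 of the 35, against 0.300% of all genes. The list's median was 0.65, against 0.01 for all genes. Without libraries 11 and 18 the median was 0.61, with 21 genes higher at an unadjusted p under 0.05 and 2 past the threshold; with the run block 9 of the 35 rose, and with the macrophage marker level as a covariate 8 did; DESeq2 called 12. Leaving out 1 library at a time gave medians of 0.56 to 0.66. It gave 3 genes that rose without library 2, 11, 12, 13 or 16, 5 without 15, 6 without 4 and 8 without the floxed STZ library 17.

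The other 3 genes of this list without overlap did not pass. Hadhb, a subunit of the mitochondrial trifunctional protein, was at 78.9, 123 and 149 CPM without STZ and at 166, 222 and 349.9 CPM with it (log2 difference 0.96 ± 0.21, edgeR adjusted p = 0.0515). Pex11a, a peroxisome division factor, had medians of 14.9 and 27.9 CPM (1.06 ± 0.27, 0.138). Acadm, the medium-chain acyl-CoA dehydrogenase, had medians of 248 and 326 CPM (0.63 ± 0.20, 0.262). Close to the threshold were Acadl, the long-chain dehydrogenase (1.15 ± 0.26, edgeR adjusted p = 0.0712), and Eci2, an enoyl-CoA isomerase (1.03 ± 0.23, 0.0721), each higher in all 5 runs that hold both groups. With the run as a block Hadhb, Acadl, Eci2, Decr1 and Pdk4 passed as well (adjusted p 0.033, 0.00888, 0.0326, 0.0471 and 0.00888).

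Of the regulators of fuel choice on the list 4 are described here, none of which passed and all of which overlapped between the groups. Pdk4, the kinase that turns off pyruvate dehydrogenase, was at 212, 476 and 1018 CPM without STZ and at 778, 1754 and 2511 CPM with it (1.67 ± 0.42, edgeR adjusted p = 0.112). Angptl4, a secreted inhibitor of lipoprotein lipase, had medians of 11.6 and 32.8 CPM (1.51 ± 0.37, 0.105). Ucp3, the uncoupling protein of muscle mitochondria, had overlapping ranges of 70.8 to 384 and 168 to 379 CPM (0.24 ± 0.41, 0.846). Cpt1b, which admits long-chain fatty acids to mitochondria, had medians of 4.88 and 7.49 CPM (0.51 ± 0.27, 0.473).

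**Figure D2:**
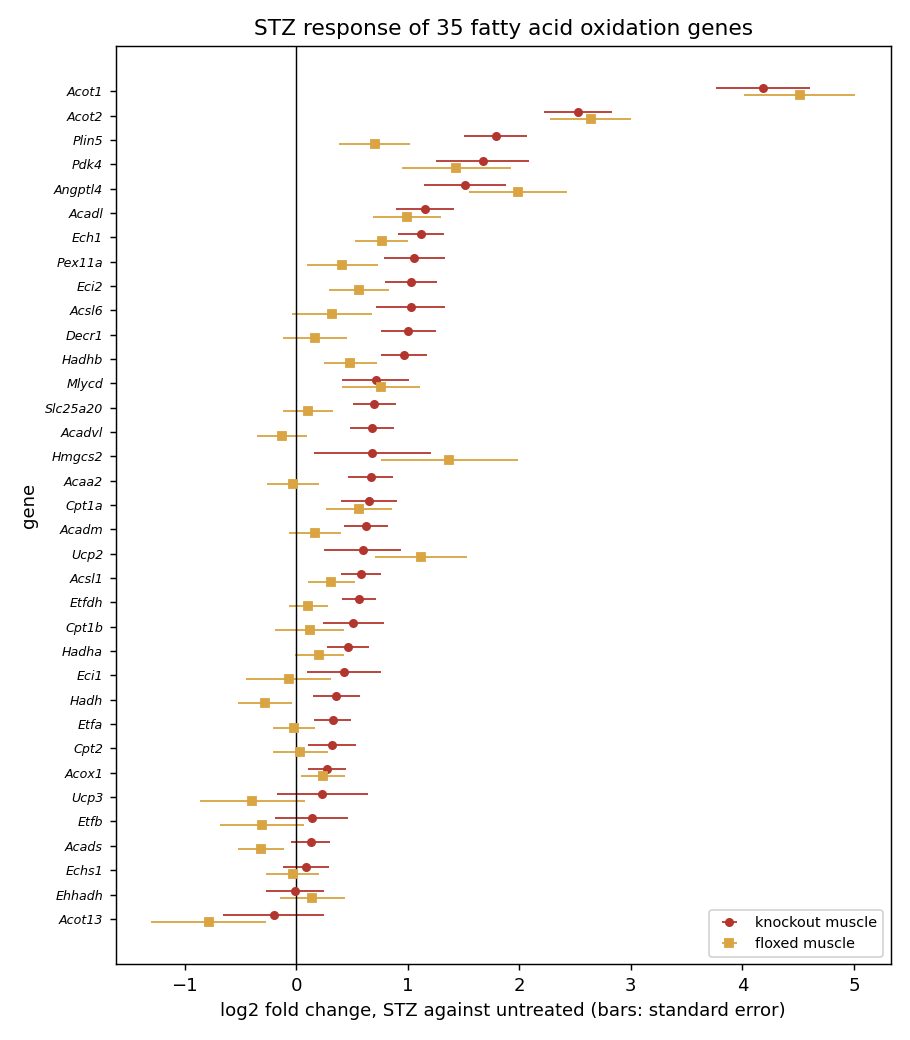
Log2 fold change for STZ (horizontal axis, bars: standard error) of the 35 fatty acid oxidation genes in knockout muscle (circles) and floxed muscle (squares). In knockouts 33 of 35 lie above 0, from Acot1 at 4.18 down to Acot13 at -0.20.

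Transcripts of genes for fatty acid uptake were higher in part, as were those for oxidation. Cd36, the main fatty acid transporter of the muscle membrane, was at 178, 357 and 469 CPM in untreated and at 429.9, 965 and 1171 CPM in STZ knockouts. Only the lowest STZ library, 4, overlapped the untreated range. Cd36 rose by 1.42 ± 0.23 (edgeR adjusted p = 0.00676) and passed without any 1 knockout library. The call was lost without libraries 11 and 18 together (edgeR adjusted p = 0.0703). It was also lost with the 12 knockout libraries alone, and with these and the run block (0.138). Of 18 genes tested for lipid uptake and droplets 2 rose (Cd36 and Plin5, which both lists hold), 14 were positive and the median was 0.38, which was 0.20 without libraries 11 and 18. Fabp3, the fatty acid binding protein of heart and muscle, was at 28.5, 94.4 and 149 CPM without STZ and at 98.0, 286 and 744 CPM with it, but did not pass (1.90 ± 0.50, edgeR adjusted p = 0.146; 0.00278 with the run block).

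**Figure D3:**
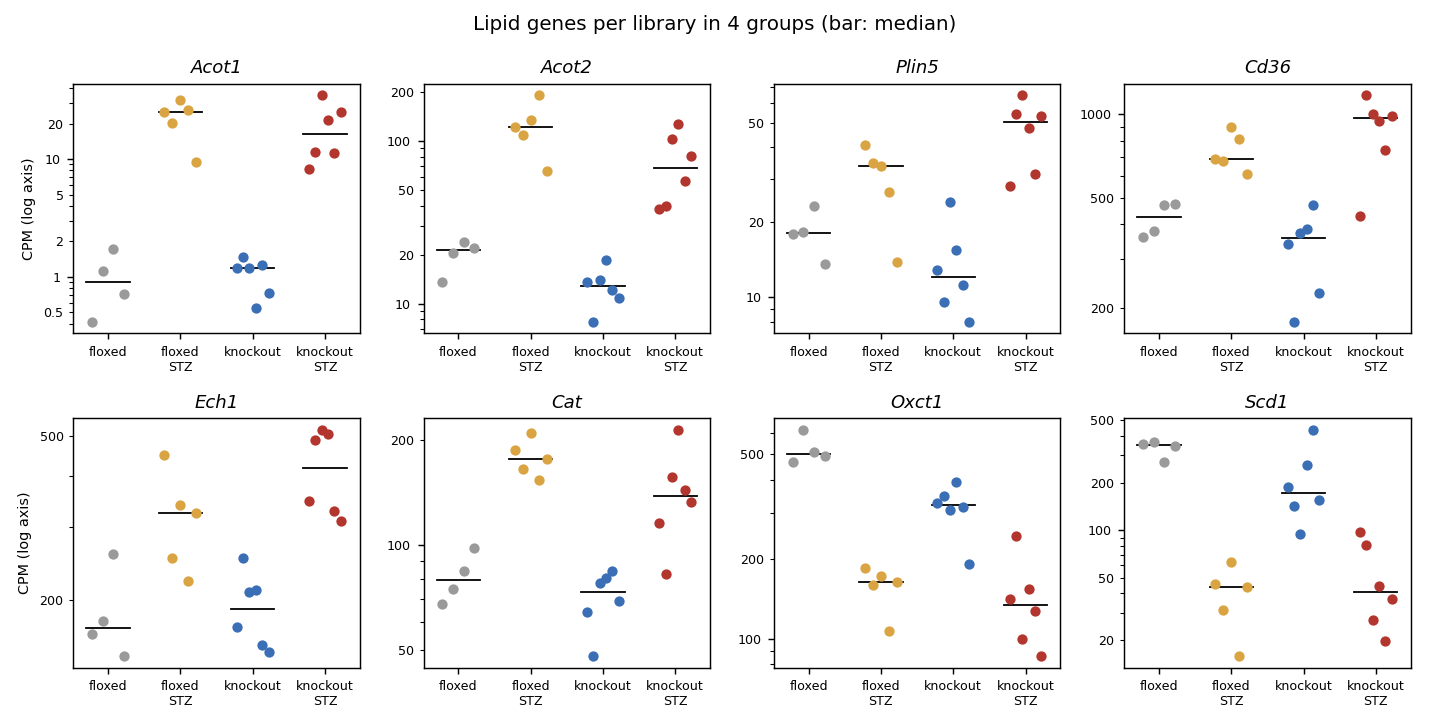
CPM on a log axis of Acot1, Acot2, Plin5, Cd36, Ech1, Cat, Oxct1 and Scd1, 1 point per library in the 4 groups with a bar at the median. The knockout groups do not overlap for Acot1, Acot2, Plin5 and Ech1, and Oxct1 and Scd1 have lower medians after STZ in both genotypes.

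Cat encodes catalase, which degrades the hydrogen peroxide made by peroxisomal oxidation, and it is also on the list of genes associated with FoxO. It was at 47.9, 73.5 and 84.3 CPM in untreated and at 82.8, 139 and 214 CPM in STZ knockouts, with 1 STZ library, the lowest, inside the untreated range. Cat rose by 1.00 ± 0.19 (edgeR adjusted p = 0.0253) in knockout muscle. Foxo3 counts did not check the loss of FoxO3, and cells other than fibres kept the FoxO genes. Which cells had more Cat was not tested. In floxed muscle Cat rose by 1.14, and the difference of -0.14 did not pass (unadjusted p = 0.632). The call in knockouts was lost without library 2, 6, 10, 11, 12, 13 or 15 (adjusted p 0.0508 to 0.0849).

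Fat synthesis and ketone use each gave 1 gene that fell. Scd1, the desaturase that makes monounsaturated fatty acids, was at 95.1, 172 and 436 CPM without STZ and at 20.0, 40.6 and 98.1 CPM with it. It fell by 2.06 ± 0.40 on the log2 scale (edgeR adjusted p = 0.0312), and the groups overlapped by 1 library on each side. The call was lost with the run block (-1.95, adjusted p = 0.0522) and without library 2, 6, 11, 12, 13, 15, 16 or 18 (adjusted p 0.0522 to 0.108). Of 14 fatty acid synthesis genes Scd1 alone passed, 9 were negative and the median was -0.35; Fasn, fatty acid synthase, had medians of 57.5 and 37.7 CPM (-0.94 ± 0.36, edgeR adjusted p = 0.338). Oxct1, the enzyme that activates acetoacetate for oxidation, was at 191, 322 and 394 CPM without STZ and at 85.8, 134 and 246 CPM with it. It fell by 1.14 ± 0.22 (edgeR adjusted p = 0.0295), with the STZ library 8 and the untreated library 20 overlapping. The call was lost without library 2, 6, 10, 11, 12, 13, 15, 16 or 18 (0.0539 to 0.108). None of the other 5 ketone genes tested passed.

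Foxo6, the FoxO gene that was not targeted, and its neighbour Foxo6os were both lower. Foxo6os, a noncoding transcript on the plus strand at chr4:120291350-120303892, was at 16.2, 23.5 and 37.2 CPM in untreated and at 0.852, 3.92 and 7.63 CPM in STZ knockouts. The groups did not overlap, and it fell by 2.68 ± 0.39 (edgeR adjusted p = 0.00270), also without any 1 knockout library. The call was lost with the 12 knockout libraries alone and the run block (edgeR adjusted p = 0.0596). Foxo6 itself starts 4001 bases away on the minus strand (chr4:120267079-120287349). It was at 3.60, 7.51 and 10.3 CPM without STZ and at 0.607, 1.94 and 3.57 CPM with it, with no overlap, but did not pass (-1.80 ± 0.43, edgeR adjusted p = 0.0906). Untreated knockouts had the higher median of Foxo6, 7.51 CPM against 3.60 CPM in untreated floxed muscle.

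The remaining genes past the threshold do not belong to a lipid list. Chrna2, an acetylcholine receptor subunit, was at 0.145, 0.330 and 1.79 CPM without STZ and at 3.09, 3.48 and 5.98 CPM with it, and rose by 2.81 ± 0.46 (edgeR adjusted p = 0.00676). Rmi2, a partner of the BLM helicase in DNA repair, was at 1.79, 2.49 and 4.69 CPM without STZ and at 0.162, 0.499 and 0.910 CPM with it, and fell by 2.55 ± 0.40 (0.00413). Neither overlapped between the groups, and both passed without any 1 knockout library, at low levels in all. Rmi2 had an edgeR adjusted p of 0.0629 without libraries 11 and 18 together. Chrna2 lost its call without libraries 4, 15, 16 and 20, and with the 12 knockout libraries alone. Gng7, a G protein gamma subunit, fell by 1.76 ± 0.33 (edgeR adjusted p = 0.0252), from a median of 5.28 to 1.33 CPM with no overlap. Slc47a1, an exporter of organic cations, fell by 0.91 ± 0.19 (0.0486), from 28.2, 37.2 and 48.3 CPM to 11.5, 21.5 and 27.9 CPM, also with no overlap.

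Rab15, a small GTPase of endosomes, rose by 1.71 ± 0.32 (edgeR adjusted p = 0.0253), from a median of 4.63 to 17.2 CPM. Rai14, an actin-associated protein, rose by 1.12 ± 0.23 (0.0486), from 6.68, 13.6 and 18.9 CPM to 20.3, 24.2 and 45.3 CPM, with no overlap. Rora, a nuclear receptor, reached 635 CPM in library 18 and did not pass (1.26 ± 0.39, edgeR adjusted p = 0.257).

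Kcnf1, a modifier subunit of potassium channels, rose by 2.87 ± 0.57 (edgeR adjusted p = 0.0426), with 45.1 and 53.4 CPM in libraries 11 and 18 and 3.09 to 10.3 CPM in the other 4. Without those 2 libraries its log2 difference was 1.23 (adjusted p = 0.427), and the call was lost with the run block (2.50, 0.0696). Gm10603 is annotated on the minus strand across the start of Ucp3 (chr7:100446737-100474846), and it also overlaps C2cd3 and Gm37716 on the plus strand. It rose by 1.62 ± 0.29 (edgeR adjusted p = 0.0152), from a median of 3.46 to 11.7 CPM. The strand setting of the counting is not given in the sources used here. Single libraries decided several of these calls. That of Gng7 was lost without 2, 6, 11, 12, 13, 15, 16 or 18 (adjusted p up to 0.0849) and that of Gm10603 without 2, 6, 11 or 13 (up to 0.0632). Rab15 lost its call without 2, 6, 10, 11, 12, 13, 16 or 18 (up to 0.0875), and Kcnf1 without these or 20 (up to 0.132). Slc47a1 and Rai14 passed only without 4 or 8 and were lost without each of the other 10 knockout libraries (up to 0.111 and 0.124).

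Genes associated with FoxO did not pass in knockouts, with the exception of Cat. Of 28 on the list, 24 had positive fold changes, 8 were higher (28.6%, against 6.84% of all genes) and 1 lower (3.57%, against 4.46%) at an unadjusted p under 0.05, and the median was 0.38. Trim63, the ubiquitin ligase MuRF1, was at 170.0, 380.3 and 409 CPM in untreated and at 253, 647 and 4922 CPM in STZ knockouts (2.03 ± 0.63, edgeR adjusted p = 0.256). Fbxo32, the ubiquitin ligase atrogin-1, was at 137, 292 and 416 CPM without STZ and at 266, 488 and 2156 CPM with it (1.51 ± 0.49, 0.280). For both genes libraries 11 and 18 were far above the other STZ libraries: Trim63 was at 1515 and 4922 CPM in these and at 253 to 705 CPM in the other 4. Without them the list's median was 0.15 (0.25 without library 18 alone) and 3 of 28 were higher at an unadjusted p under 0.05 (4 without library 18 alone). Of 19 atrophy ubiquitin ligases none passed, and 4 were higher (21.1%) and 1 lower (5.26%) at an unadjusted p under 0.05, with a median of 0.19. Without libraries 11 and 18 none was higher and the median was 0.08; 1 was higher without library 18 alone and 7 without library 8. Of 34 autophagy genes tested none passed and the median was 0.06. At an unadjusted p under 0.05, 3 were higher (8.82%, near the 6.84% of all genes) and 0 lower. DESeq2 also called none of the ligases and none of the autophagy genes.

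The same 2 libraries carried the highest levels of several genes of hormone and stress response. Pik3r1, the regulatory subunit of PI 3-kinase, was at 436 and 815 CPM in libraries 11 and 18 and at 82.2 to 117 CPM in the other 4 STZ knockouts, against 52.3 to 82.5 CPM in untreated ones (2.06 ± 0.47, edgeR adjusted p = 0.0733; 0.851 without the 2 libraries). Fkbp5, a glucocorticoid target, was at 494 and 794 CPM in these and at 135 to 196 CPM in the other 4 (1.03 ± 0.43, 0.381). Cdkn1a, the cell cycle inhibitor p21, was at 325 and 328 CPM in these and at 72.8 to 95.8 CPM in the other 4 (0.80 ± 0.51, 0.545). Of 22 glucocorticoid-induced genes none passed, and the median of 0.25 was 0.05 without the 2 libraries. At an unadjusted p under 0.05, 5 were higher (22.7%, against 6.84% of all genes) and 0 lower. Of 34 insulin signalling genes none passed, with a median of 0.13. By the same measure 6 were higher (17.6%, against 6.84% of all genes) and 1 lower (2.94%, against 4.46%). DESeq2 called 1 gene of each of these lists, both higher.

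Among genes of glucose use none of 27 passed in edgeR (median -0.13) and DESeq2 called 1, lower. At an unadjusted p under 0.05, 2 were higher (7.41%) and 1 lower (3.7%), near the 6.84% and 4.46% of all genes. Slc2a4, the insulin-responsive transporter GLUT4, was at 432, 999 and 1234 CPM without STZ and at 477, 534 and 691 CPM with it (-0.77 ± 0.20, edgeR adjusted p = 0.126). The 432 CPM were those of library 20, and the other untreated knockouts were at 850 CPM or more. Slc2a4 was the gene that DESeq2 called (adjusted p = 0.0135). It passed in 3 of 22 other settings, and in 1 of the 12 that left out 1 knockout library. Fbp2, muscle fructose bisphosphatase, was at 10.9 to 79.1 CPM without and 83.9 to 198 CPM with STZ, with no overlap (1.48 ± 0.53, 0.318). Hk2, hexokinase 2, had medians of 625.4 and 513 CPM (-0.02 ± 0.26, 0.986).

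No gene for the breakdown of branched-chain amino acids passed. Of 23 genes 16 were negative, 4 were lower at an unadjusted p under 0.05 (17.4%, against 4.46% of all genes) and none higher, with a median of -0.20. DESeq2 called 2, both lower. Without library 20, 8 were lower at an unadjusted p and 2 fell; 2 also fell without the floxed STZ library 17 and 1 without 4 or 8. Bcat2, the mitochondrial transaminase of the first step, was at 40.0, 52.6 and 97.3 CPM without STZ and at 22.3, 28.1 and 39.4 CPM with it, with no overlap (-1.03 ± 0.23, edgeR adjusted p = 0.0670). Ivd, isovaleryl-CoA dehydrogenase, was at 95.8, 176 and 208 CPM without STZ and at 82.8, 89.0 and 107 CPM with it (-0.85 ± 0.18, 0.0501). With the run as a block both passed (adjusted p 0.000426 and 0.0202).

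Interferon-induced genes were positive in 28 of 33, but none passed in knockouts. At an unadjusted p under 0.05, 11 of 33 were higher (33.3%, against 6.84% of all genes) and none lower, with a median of 0.45, which was 0.70 without libraries 11 and 18 and 0.30 without library 15. The count higher was 5 without library 15 and 7 without 6 or 10, and 1 gene rose without 8, 17 or 18. DESeq2 called 1, higher. Gbp4, an interferon-induced GTPase, was at 2.21, 4.77 and 7.79 CPM without STZ and at 4.69, 18.2 and 31.3 CPM with it (1.84 ± 0.42, edgeR adjusted p = 0.0780; 0.0471 with the run block). Cd274, the T cell inhibitor PD-L1, had medians of 3.40 and 10.4 CPM (1.44 ± 0.44, 0.242). Of 21 antigen presentation genes none passed (median 0.04), and DESeq2 called 1, higher. At an unadjusted p under 0.05, 3 were higher (14.3%, against 6.84% of all genes) and 0 lower. H2-Q7, a nonclassical class I gene, had medians of 1.99 and 7.82 CPM (1.42 ± 0.37, edgeR adjusted p = 0.144). H2-Q genes are near-identical copies, so reads may be split among them. Beside these values, the 20 macrophage markers summed to 365, 767 and 2371 CPM in untreated and 351, 1254 and 3784 CPM in STZ knockouts, and the 12 lymphocyte markers to 1.79, 2.34 and 5.48 and to 0.971, 2.58 and 4.87 CPM. Of the lymphocyte markers only Cd3e had counts in all 12 knockout libraries. The part of these cells in the interferon result was not tested, except that with the macrophage marker level as a covariate the list's median was 0.41.

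Extracellular matrix genes were negative in 30 of 37 and none passed. At an unadjusted p under 0.05, 10 were lower (27.0%, against 4.46% of all genes) and 1 higher, and the median was -0.60. The count lower was 20 without library 4 and 5 without library 20, and 2 genes fell without library 4. It was -0.28 without libraries 11 and 18, -0.85 without libraries 4, 15, 16 and 20, -0.99 without library 4 alone and -0.13 without library 20 alone. DESeq2 called 2 of the 37, both lower. Col15a1, a basement membrane collagen, was at 49.8, 70.9 and 132 CPM without STZ and at 12.9, 19.4 and 50.02 CPM with it (-1.62 ± 0.36, edgeR adjusted p = 0.0716); with the run block it was the 1 gene of the list that passed (0.0195). Col1a1, the main chain of fibrillar collagen, was at 272, 677 and 2055 CPM without and at 35.1, 89.2 and 1032 CPM with STZ (-1.49 ± 0.76, 0.457). Sparc, a collagen chaperone, had medians of 667 and 328 CPM (-1.14 ± 0.31, 0.158). The 13 fibroblast markers summed to 3119, 3765 and 5836 CPM in untreated and 1379, 2425 and 4567 CPM in STZ knockouts, and the 11 tendon markers to 638, 778 and 1979 and to 292, 548 and 1596 CPM. Library 20 was the highest untreated and library 4 the highest STZ library in both sums. The part of cell number in the matrix values was not tested.

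Of the 15 endothelial markers 8 were positive and 7 negative, and none passed. At an unadjusted p under 0.05, 0 were higher and 2 lower (13.3%, against 4.46% of all genes). The median was 0.00 (-0.10 to 0.05 without 1 library), and DESeq2 called 1, lower. Of the genes followed, 3 of blood vessels had an adjusted p from 0.0515 to 0.0716. Ace, the angiotensin-converting enzyme of endothelium, had medians of 62.4 and 29.2 CPM (-0.94 ± 0.20, edgeR adjusted p = 0.0515). Aplnr, the apelin receptor, had medians of 20.9 and 7.29 CPM (-1.82 ± 0.40, 0.0606), and Ramp2, the adrenomedullin co-receptor, was at 19.3, 24.7 and 27.6 CPM without and at 12.1, 13.9 and 14.8 CPM with STZ, with no overlap (-0.81 ± 0.18, 0.0716). All 3 passed with DESeq2 and with the run block (edgeR adjusted p 0.0109, 0.0391 and 0.0471), and without libraries 11 and 18 these were 0.328, 0.322 and 0.307. The summed 15 endothelial markers, Ramp2 included, were at 644, 695 and 779 CPM and at 585, 682 and 738 CPM.

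No respiratory chain gene passed in knockouts. Of 37 nuclear genes of complex I none passed (0 higher, 0 lower at an unadjusted p under 0.05), with a median of -0.15, against -0.77 in floxed muscle. Of 41 genes of complexes II to V none passed, with medians of -0.20 and -0.84 (1 higher, 2.44% against 6.84% of all genes, and 0 lower). Of 20 citric acid cycle genes none passed, with medians of -0.12 and -0.56 (0 higher and 1 lower, 5% against 4.46% of all genes). The difference between the genotypes passed the test for none of these genes. The complex I median was 0.00 without libraries 11 and 18, -0.33 with the run block and -0.50 to -0.01 without 1 library at a time; libraries 4, 6, 8, 13, 15, 16, 18 and 20 each moved it by over 1.5 times. With the run block 11 of the 37, 5 of the 41 and 2 of the 20 were lower at an unadjusted p under 0.05. Without library 8 alone 10, 12 and 3 were. Over all genes, in either direction, 2149 of 12658 had such a p with the run block. Without library 8 it was 1991 of 12668, against 1430 in the main fit. Leaving out 1 library gave medians of -0.48 to -0.04 for complexes II to V (moved over 1.5 times by 4, 6, 8, 13, 15, 16 or 18) and of -0.30 to -0.06 for the citric acid cycle (by 4, 8, 15, 18 or 20). DESeq2 called none of these respiratory and cycle genes. Immediate early genes were positive in 17 of 21, with none past the threshold in edgeR or DESeq2 and a median of 0.57. At an unadjusted p under 0.05, 7 were higher (33.3%, against 6.84% of all genes). Without library 10 or 16 the count higher was 4, and 1 gene rose with the run block or without library 17. The regeneration list was negative in 15 of 16 with a median of -0.58, which was 0.03 with the run block, 0.69 without library 20 and -1.03 without library 4. The plot of list medians sets all 37 lists side by side, and their order changed with the setting. With the run block immediate early genes were at 0.67 and fatty acid oxidation at 0.62, and without libraries 11 and 18 interferon-induced genes were at 0.70 and fatty acid oxidation at 0.61.

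**Figure D4:**
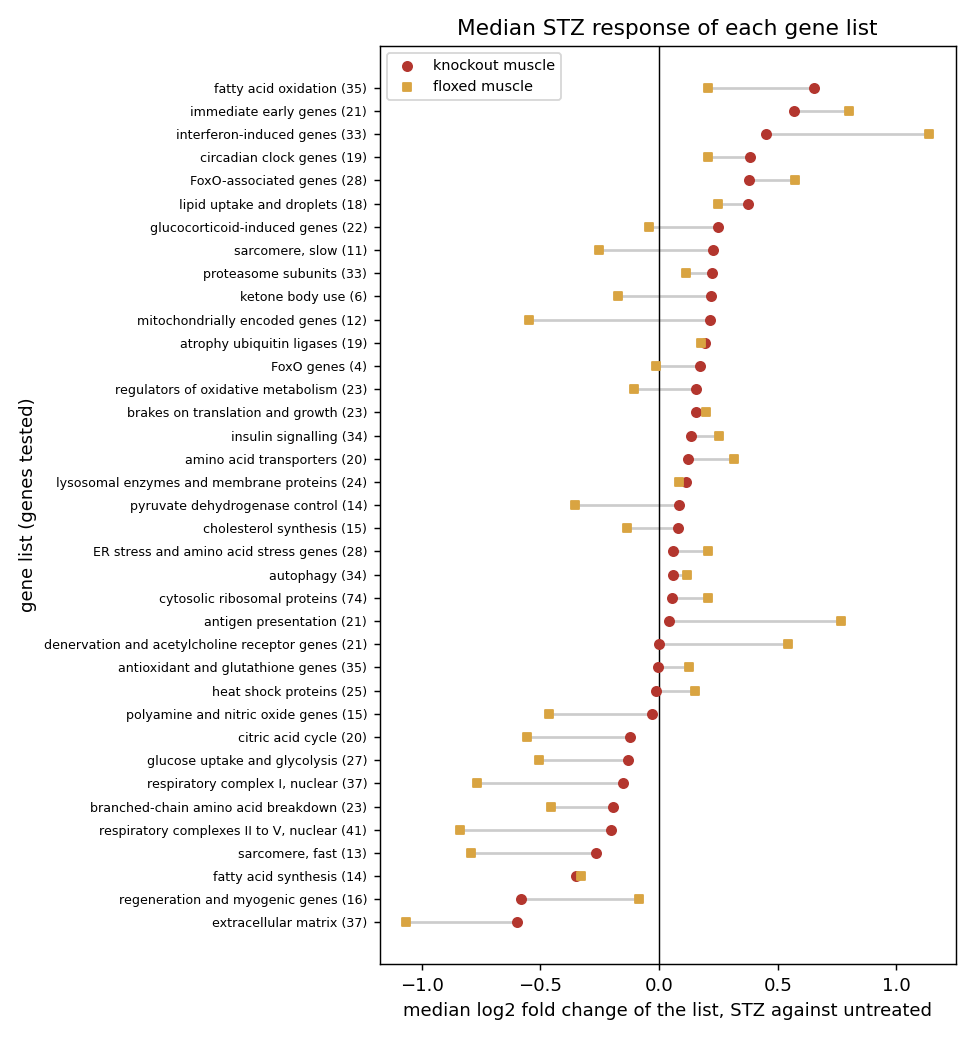
Median log2 fold change for STZ of each of the 37 pathway lists in knockout (circles) and floxed muscle (squares), sorted by the knockout value, with the number of genes tested in brackets. Fatty acid oxidation is at the top of this plot (0.65, floxed 0.21) and extracellular matrix at the bottom (-0.60, floxed -1.07), an order that changed with the run block and with left-out libraries.

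The response of knockout muscle was set beside that of floxed littermates, which shares no libraries with it. All 18 genes past the threshold in knockouts had the same sign in floxed muscle, and 9 passed there too. Among these Acot1, Acot2, Cat and Chrna2 rose, and Foxo6os, Rmi2, Scd1 and Oxct1 fell. In the other direction, of the 171 genes past the threshold in floxed muscle 159 had the same sign in knockouts, 85 with an unadjusted p under 0.05; over all genes 8786 of 12658 had the same sign. Of the 63 that rose in floxed muscle the median was 1.48 there and 0.67 in knockouts, and of the 108 that fell it was -1.60 and -0.54. These genes were chosen by their floxed values. Across the 12658 genes the log2 fold changes of the genotypes had Pearson r = 0.53 and Spearman rho = 0.53, as a description over genes, which are not independent.

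The test of the difference between the genotypes passed for 1 gene (0.0079%). Ddah1, which breaks down methylated arginines that inhibit nitric oxide synthase, was at 19.0, 21.2 and 26.4 CPM in untreated and 16.3, 19.8 and 33.0 CPM in STZ knockouts (-0.03 ± 0.18), and fell by 1.96 in floxed muscle, from 8.78 to 12.8 CPM down to 1.82 to 3.36 CPM. The difference was 1.92 (edgeR adjusted p = 0.0179). No gene passed this test when floxed library 5, 7, 17, 19 or 21 or knockout library 10 was left out, or with the run block. For the 18 genes called in knockouts the smallest unadjusted p of the difference was 0.00288, for Foxo6os (-4.96 in floxed muscle); Gm10603 (0.0149), Plin5 (0.0161) and Rai14 (0.0323) also had an unadjusted p under 0.05, as did 493 of all genes (3.89%). None of these passed after adjustment. The 18 genes were chosen by their STZ effect in knockouts, which is part of the difference. Their p-values therefore cannot be weighed against the share of all genes. Fatty acid oxidation genes had 3 past the threshold in floxed muscle and 4 in knockouts, and for none of the 35 did the difference pass.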

How the data were processed

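The authors deposited a table of raw counts per gene. Per the submitters' processing notes, reads were aligned with STAR to GRCm38.p4 and counted with featureCounts; their versions and strand setting: not given in the sources used here. Per the labels' protocols, libraries came from Trizol RNA with a directional kit. All 21 libraries entered 1 fit (edgeR 4.0.16 in R 4.3.3: filterByExpr, TMM, 4 group means, robust quasi-likelihood test, Benjamini-Hochberg over 12658 genes, two-sided, threshold 0.05). Standard errors are the fold change divided by the root of F. CPM use TMM-scaled library sizes. The fit was tested on simulated data. Symbols and positions are from GENCODE M21.

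Genes named were a fixed panel, the 12 highest and 12 lowest by fold change among called genes whose mean log2 CPM reached 2, filled by lowest p, and called or lowest-p members of each list. Chrna2, Gm10603, Gng7, Rmi2, Fabp3, Fasn, Acadm, Rora and some list members below the threshold were named after their values were seen. Of the 18 genes past the threshold 1 is not reported here. Members and lists were chosen with earlier results of these data known. Alternatives were DESeq2 1.42.0, other normalization and filters, the run of library codes as a block, a macrophage covariate, and left-out libraries; leaving out 11 and 18 was added after seeing the data. No 2 of the 12 knockout libraries agreed within sampling noise (lowest chi-square per degree of freedom 8.61). Pairs with floxed libraries were not compared.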

Additional observations from a re-analysis of the deposited data

Results flagged for a closer look

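In 188 group comparisons of single values (83 genes and 11 marker sums in both knockout groups), 21 had 1 library far from the other 5, by Dixon's test of the gap over the group's range. Chance gives about 1 in 20 such groups where values are independent and normally distributed, which was not tested here. Library 18 was the highest STZ knockout for Trim63 (4922 CPM), Rora (635 CPM), Errfi1 (76.5 CPM), Irs2 (47.3 CPM), Klf15 (32.4 CPM), Foxo1 (26.7 CPM) and the neutrophil marker sum (522 CPM). Of that sum most was Mmp9 and Lcn2, while Ly6g had no count in 10 of the 12 knockout libraries. Library 20 was the highest untreated knockout for Col1a1 (2055 CPM), Col1a2 (2108 CPM), Sparc (1415 CPM), Col4a1 (319 CPM), Aplnr (51.0 CPM) and the tendon marker sum (1979 CPM). Library 4 was the highest STZ knockout for Foxo4 (12.7 CPM) and Prkag2 (15.3 CPM), and library 12 for Ddah1 (33.0 CPM). Among untreated knockouts library 16 was the highest for Fasn (115 CPM) and the neutrophil marker sum (60.1 CPM), library 2 for Cpt1b (8.69 CPM) and library 13 for Irs2 (34.3 CPM), and library 6 was the lowest for Foxo1 (7.00 CPM).

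The STZ effect on Ddah1 differed between the genotypes by the test of the difference, by 1.92 on the log2 scale.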

How the results depend on the processing

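The count of 18 genes was 29 with no filter on low counts, 98 with the library-code run as a block, 41 with the macrophage covariate, 4 with the 12 knockout libraries alone, 7 with these and the run block, 4 without libraries 11 and 18, and 111 with DESeq2 (64 higher, 47 lower, all 18 among them). Leaving out 1 library gave 7 to 61. The 1430 genes at an unadjusted p under 0.05, in either direction, were 2149 with the run block and 671 without libraries 11 and 18. They were 2071 without library 4, 1991 without library 8 and 874 without library 18. In floxed muscle the count of 171 was 278 with the macrophage covariate, 284 without libraries 11 and 18 and 425 with DESeq2, and 31 to 333 without 1 library. The 1 gene whose STZ effect differed was 2 genes with no filter, 4 with DESeq2, 0 with the run block and 0 without libraries 4, 15, 16 and 20 (652 and 635 genes at an unadjusted p under 0.05 in edgeR), and 0 to 2 without 1 library. The cause of these changes was not tested. Of the 83 genes followed, settings gave 1580 values with the same direction and side of the threshold, 129 that lost and 93 that gained a call, and 22 of opposite sign, all in genes that did not pass. Without libraries 11 and 18 these were Foxo1 (-0.10), Cdkn1a (-0.18), Klf15 (-0.012), Irs2 (-0.091) and Ddah1 (0.096). Ucp3 was -0.048 without libraries 4, 15, 16 and 20 and Hk2 was 0.053 with the macrophage covariate. Without 1 library at a time Foxo1 ranged from -0.12 to 0.18 (negative without 6 or 18), Hk2 from -0.34 to 0.13 (positive without any of 7 libraries), Irs2 from -0.059 (without 18) to 1.05 and Ddah1 from -0.19 to 0.041. The title numbers gave no pairing, since each is used once, and the run of library codes was the only block. For pairs of an STZ and an untreated knockout, deviations from the group mean had a mean correlation of 0.11 within a run (-0.34 to 0.38). Between runs it was -0.02 (-0.46 to 0.58). Over all knockout pairs these were 0.11 and -0.11, but deviations from a group mean are negatively correlated within the group by construction. At 2951290 to 6234979 counts per library, genes below 1 CPM rest on few counts.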

Other observations

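No gene of the protein turnover and stress lists below passed in edgeR in knockouts. Of 33 proteasome subunits 26 were positive and none passed (median 0.22). At an unadjusted p under 0.05, 1 was higher (3.03%, against 6.84% of all genes). Of 24 lysosomal genes none passed (2 higher, 8.33%, and 0 lower, median 0.12). Of 28 endoplasmic reticulum and amino acid stress genes none passed (0 higher and 2 lower, 7.14%, median 0.06). Of 25 heat shock genes none passed (1 higher and 1 lower, 4% each, median -0.01). Over all genes 6.84% were higher and 4.46% lower. The 74 cytosolic ribosomal protein genes had none past the threshold (0 higher, 0 lower) and a median of 0.06. DESeq2 called 1 heat shock gene, higher, and none of the others. Leaving out 1 library gave proteasome medians of 0.06 to 0.30, with 0 to 8 genes higher at an unadjusted p under 0.05. For ribosomal protein genes it gave -0.25 to 0.23, with 0 to 6 higher. It gave -0.06 to 0.21 for lysosomal, -0.01 to 0.12 for stress and -0.10 to 0.10 for heat shock genes. Without libraries 4, 15, 16 and 20 together 7 proteasome subunits were higher.

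No contractile gene passed, and a difference between fast and slow genes was not tested. Of 13 genes of fast sarcomeres 12 were negative and none passed (0 higher, 0 lower at an unadjusted p under 0.05), with a median of -0.26 against -0.79 in floxed muscle. Of 11 genes of slow sarcomeres 7 were positive and none passed (0 higher, 0 lower; DESeq2 called none of either list), with medians of 0.23 in knockouts and -0.25 in floxed muscle. Leaving out 1 library gave knockout medians of -0.42 (without 8) to -0.10 (without 6) for the fast list and of 0.09 (without 11) to 0.30 (without 6) for the slow list, which was 0.11 without 16. Mstn, the growth inhibitor myostatin, had medians of 52.6 and 109.8 CPM in untreated and STZ knockouts (0.98 ± 0.35, edgeR adjusted p = 0.321). The 12 mitochondrially encoded genes tested had a median of 0.21 in knockouts and -0.55 in floxed muscle. None passed in knockouts (1 higher, 8.33% against 6.84% of all genes, and 0 lower), none with DESeq2 and none for the difference. Leaving out 1 library gave knockout medians of 0.03 to 0.33. Among untreated knockouts mt-Atp6 was at 9.58 to 314 CPM and mt-Co1 at 5614 to 12836 CPM, and the reason for such spreads was not tested.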
